A study of Sus scrofa with 5 samples.

Results

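The carnitine shuttle carries long-chain fatty acids into mitochondria, and 4 of its genes were followed here in pig backfat together with PPARA, the gene of a nuclear receptor that senses fatty acids. The members were every array probe set (a group of short probes that reads 1 transcript) annotated with exactly one of the symbols CPT1A, CPT1B, CPT2, SLC25A20 and PPARA. This gave 6 probe sets for 5 genes, of 10069 probe sets with 1 symbol, 6765 genes and 23999 probe sets tested in all. CPT1A, CPT1B, CPT2 and SLC25A20 had 1 probe set each and PPARA had 2.

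The samples were backfat of 5 female pigs of an Iberian x Landrace backcross to Landrace, hybridized to Affymetrix porcine arrays with 1 array per animal, beside RNA-Seq of the same animals that was not analysed here. BC4, BC5 and BC6 belonged to the H group, whose muscle was richer in polyunsaturated fatty acids, and BC2 and BC3 to the L group, whose muscle was richer in saturated and monounsaturated ones. The groups had been set by a principal component of carcass and muscle fatty acid traits, so they differ by phenotype and carry no treatment or engineered allele. All pigs were raised on the same cereal-based diet without restriction and were slaughtered at a similar age, and sibs were avoided within a group. According to the paper, the animals were fasting at slaughter.

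In the shuttle, carnitine palmitoyltransferase 1 (CPT1) on the outer mitochondrial membrane joins a long-chain acyl group to carnitine, the carrier SLC25A20 exchanges the acylcarnitine for free carnitine across the inner membrane, and CPT2 on the matrix side returns the acyl group to coenzyme A for beta-oxidation. CPT1 is the controlled step, because malonyl-CoA, the first product of fatty acid synthesis, inhibits it. CPT1A is the liver-type form and CPT1B the muscle-type form. PPARA, when bound by fatty acids, pairs with a retinoid X receptor and raises transcription of shuttle and beta-oxidation genes, chiefly in liver, heart and muscle.

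The array values are on the log2 scale, so a difference of 1 is a doubling of the signal. Array medians over all probe sets were 4.26 to 4.29 in H and 4.21 to 4.25 in L, and Spearman's rho between pairs of arrays, across probe sets, ran from 0.982 to 0.989. The lowest value was 2.17. The same value on all 5 arrays, to within 1e-06, was found for 6443 probe sets (26.8%), and such a probe set shows no difference between animals whatever its level. All 5 measured fat cell markers (FABP4, LIPE, PPARG, ADIPOQ and LEP) were above the floor on every array, but not evenly. LEP, the leptin gene, read 8.27, 4.41 and 10.48 in H and 9.33 and 8.43 in L, and ADIPOQ, the adiponectin gene, read 12.20, 9.09 and 10.92 in H and 11.82 and 10.52 in L, both lowest on BC5. FABP4 (15.49) and LIPE (12.40) were instead highest on BC5, and PPARG (10.50) lay within the range of the other arrays. Of 9 hepatocyte markers, 6 stayed under 3, among them SERPINA1 and CPS1, whereas APOA1 was between 11.29 and 12.57. Skeletal muscle markers were not even between animals. Their mean level was 2.46 to 5.54 on the H arrays and 2.59 to 4.09 on the L arrays, and all 7 measured markers were highest on BC5.

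CPT1A, the liver-type enzyme, was read at a high level in all 5 animals. Its log2 values were 10.33, 11.21 and 10.35 on BC4, BC5 and BC6 of the H group, against 9.57 and 10.55 on BC2 and BC3 of the L group. BC5 was the highest and BC2 the lowest, 3.11-fold apart, and BC3 lay above both BC4 and BC6, so the groups overlapped. CPT1A stood between the 89.1 and the 96.4 percentile of all probe sets on the 5 arrays. CPT1A averaged 10.63 ± 0.503 over the 3 H arrays (SD) and 10.06 ± 0.688 over the 2 L arrays (SD). The H mean exceeded the L mean by 0.57 (limma, 95% interval -0.91 to 2.05, standard error 0.493, adjusted p = 1), a 1.48-fold higher mean in H that did not pass the test. It was 0.08 without BC2, 1.06 without BC3 and 0.28 without BC5, so that its size turned on which animals were kept.

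CPT1B, the muscle-type enzyme, was read at a low level, close to the middle of all probe sets (49.7 to 57.4 percentile). Its log2 values were 4.47, 5.20 and 5.65 on BC4, BC5 and BC6, against 4.18 and 5.03 on BC2 and BC3. Here BC6 was the highest and BC2 again the lowest, and the L animal BC3 lay above the H animal BC4. CPT1B averaged 5.10 ± 0.595 over the 3 H arrays (SD) and 4.60 ± 0.598 over the 2 L arrays (SD). The H mean exceeded the L mean by 0.50, which did not pass the test (limma, 95% interval -1.05 to 2.05, standard error 0.515, adjusted p = 1). It was 0.08 without BC2, 0.92 without BC3, 0.82 without BC4 and 0.23 without BC6. In RefSeq's order of genes on Sscrofa11.1, CPT1B lies next to CHKB, a choline kinase gene, whose own probe set read 7.33, 7.76 and 7.36 in H and 6.98 and 7.13 in L. Whether transcripts that run from one gene into the other reach the CPT1B probes was not tested.

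SLC25A20, the carnitine-acylcarnitine carrier, varied least of the 3 members that had a level. Its log2 values were 9.39, 8.98 and 9.14 on BC4, BC5 and BC6, against 9.59 and 9.39 on BC2 and BC3. All H values lay below both L values, but BC4 and BC3 were separated by only 0.00051. SLC25A20 averaged 9.17 ± 0.209 over the 3 H arrays (SD) and 9.49 ± 0.142 over the 2 L arrays (SD). H minus L was -0.32 (limma, 95% interval -0.82 to 0.17, standard error 0.164, adjusted p = 1), and it was between -0.44 and -0.22 under the alternatives run. Leaving out an animal cannot turn the sign of groups that do not overlap. Among 17556 probe sets that were not constant over the arrays, 7.7% had all H values below both L values and 9.04% had them above, and SLC25A20 was the only member in either class.

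CPT2, the matrix enzyme, and PPARA gave no usable level. The CPT2 probe set was listed at 2.44 on all 5 arrays without any variation, slightly over the lowest value of the table. The second PPARA probe set was at the floor of 2.17 on all 5 arrays, and the first was at that floor on 4 arrays and differed from it by 0.0061 on BC6. No difference between H and L could be measured for either gene, and these values do not show that the transcripts are absent.

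**Figure D1:**
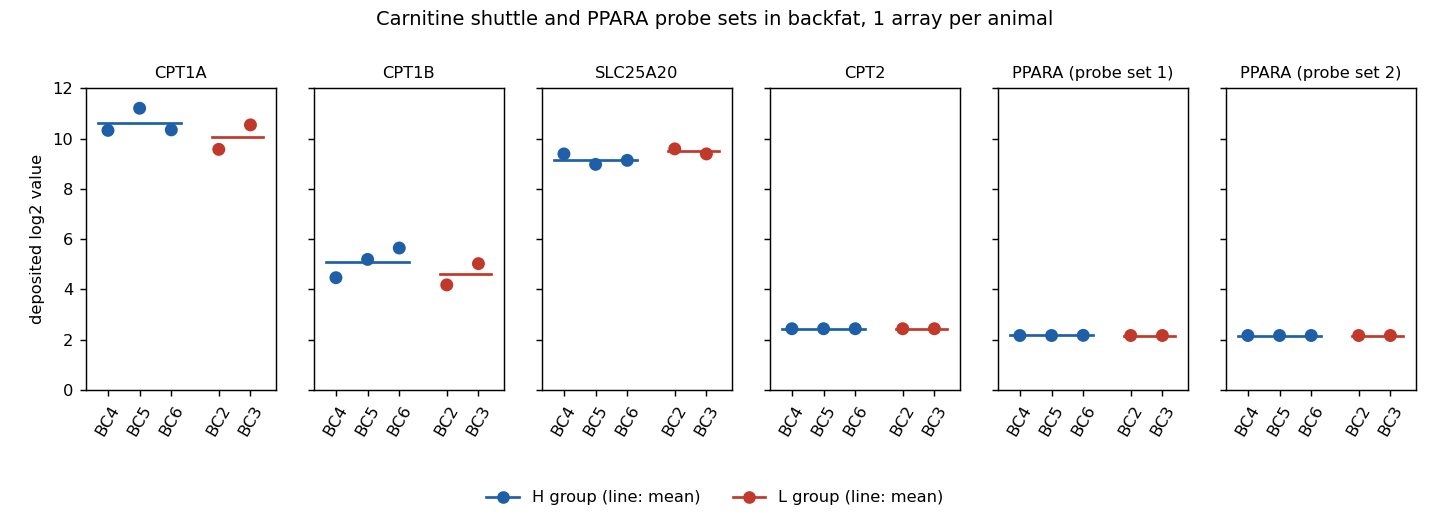
Deposited log2 values of the 6 member probe sets, 1 point per animal, with the H group in blue, the L group in red and a line at each group mean. CPT1A and SLC25A20 lie near 9 to 11, CPT1B between 4.18 and 5.65, and CPT2 and both PPARA probe sets lie flat between 2.17 and 2.44.

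Across all probe sets, none (0%) met the threshold used here (p up to 0.01, adjusted p up to 0.1, at least 1.2-fold apart), and 3.18% had an unadjusted p under 0.05. None of the 6 member probe sets passed the threshold or reached an unadjusted p under 0.05. The smallest unadjusted p among them was 0.132, for SLC25A20. The intervals of CPT1A and CPT1B reach from about -1 to 2.05, so that a doubling in either direction is nearly or wholly inside them. With 3 arrays against 2, a difference of that size was not resolved for these genes.

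The level of the liver-type against the muscle-type CPT1 was taken within each array. CPT1A exceeded CPT1B by 5.86, 6.01 and 4.70 on BC4, BC5 and BC6, against 5.39 and 5.52 on BC2 and BC3 (log2). The liver-type probe set was thus the brighter one in every animal. Probe sets differ in how well they bind their target, so this distance is not a ratio of transcripts. The mean distance was 5.53 ± 0.718 over the 3 H arrays (SD) and 5.46 ± 0.0898 over the 2 L arrays (SD), which differ by 0.07 (exact permutation test, two-sided, p = 1, where 3 against 2 arrays allow no p under 0.2). It turned to -0.10 without BC4 and to -0.18 without BC5. BC6 stood apart, with the smallest distance of the 5 animals.

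CPT1A and SLC25A20, the first and the second step of the shuttle, stood at opposite ends of their ranges on BC5 and BC2. CPT1A minus SLC25A20 within the array was 0.94, 2.23 and 1.21 on BC4, BC5 and BC6, against -0.02 and 1.15 on BC2 and BC3 (log2). BC5 had the highest CPT1A and the lowest SLC25A20, and BC2 the lowest CPT1A and the highest SLC25A20, whereas BC3 and BC4 were almost equal for the carrier. This pair was set side by side after its values had been seen, and no test is given for it. CPT1B minus SLC25A20 was likewise lowest on BC2, at -5.41, and highest on BC6, at -3.49.

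**Figure D2:**
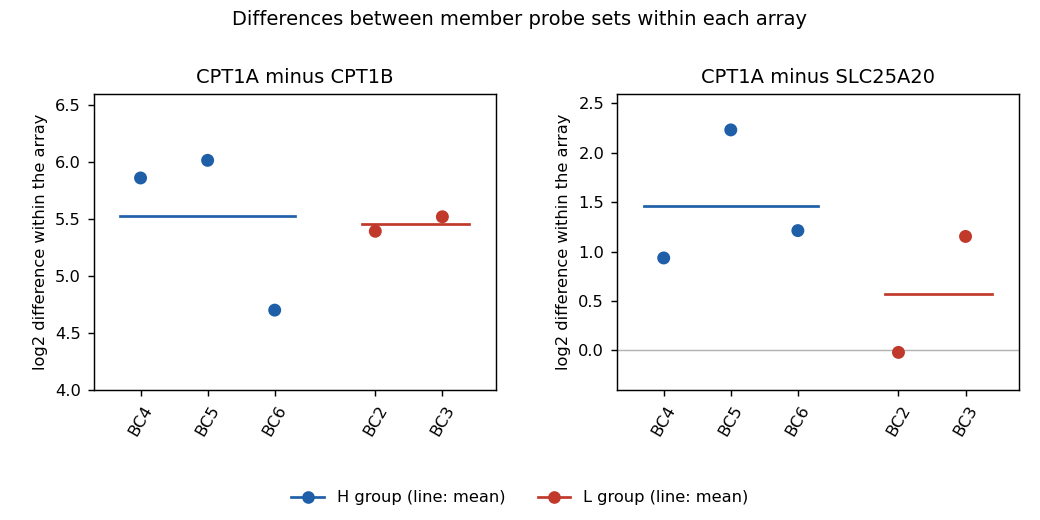
Differences between 2 probe sets within the same array (log2), 1 point per animal, H in blue and L in red, lines at group means, with a separate vertical scale in each panel. CPT1A minus CPT1B runs from 4.70 on BC6 to 6.01 on BC5 with both L animals between, and CPT1A minus SLC25A20 runs from -0.02 on BC2 to 2.23 on BC5.

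The enzymes that take over after the shuttle were read as a group beside SLC25A20. All 16 listed enzymes of mitochondrial beta-oxidation had a level, and 14 means were lower and 2 higher in H, with a median difference of -0.31. Over 5225 genes with a level, 50.7% of the means were lower in H and the median difference was -0.0041. No enzyme of the list passed the test or had an unadjusted p under 0.05. ETFA, a subunit of the flavoprotein that takes electrons from the acyl-CoA dehydrogenases, read 10.88, 10.50 and 10.88 in H and 11.39 and 11.06 in L, a difference of -0.47 (adjusted p = 1 from limma). HADH, the short-chain hydroxyacyl-CoA dehydrogenase, read 12.72, 12.31 and 12.55 in H and 12.85 and 12.86 in L, a difference of -0.33 (adjusted p = 1 from limma). These 2 of 16 enzymes were the ones whose groups did not overlap, beside 7.7% of all varying probe sets with H below both L arrays. In 15 of the 16 enzymes the lowest array was BC5 or BC6, against 48.4% of all genes with a level, and in 9 the highest was BC2, against 23.1%. These arrays were picked with the values known, and no test is given for the shares. SLC25A20 had its highest value on BC2 and its lowest on BC5 as well, whereas CPT1A and CPT1B were lowest on BC2. The median of the list was -0.08 without BC2, -0.56 without BC3, -0.48 without BC4 and -0.14 without BC6. Centred on each gene's mean over the 5 arrays, the list's median value was lowest on BC6 (-0.37), followed by BC5 (-0.25). It was 0.33 on the H animal BC4, against 0.42 on BC2 and -0.03 on BC3 of the L group. The H animals thus did not share the low values, and BC4 lay above BC3. On BC5, LEP and ADIPOQ were lowest, whereas FABP4 (15.49), LIPE (12.40) and the skeletal muscle markers were highest. The signal of the 3′ end over the 5′ end of actin, a measure of RNA integrity, was largest there (4.80 on the log2 scale, against 3.85 to 4.77 on the other 4 arrays). BC6 had the highest LEP (10.48) and PPARG (10.79), the lowest FABP4 (15.36) and LIPE (12.12), and ADIPOQ between (10.92). The centred median was lowest there for the muscle markers (-1.30) and highest for the macrophage markers (1.38). The 3′ over 5′ signal of actin was smallest on BC6 (3.85). The part of these in the enzyme values was not tested.

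Peroxisomes shorten fatty acids that the shuttle does not take. Of 12 listed genes, 8 had a probe set with a level, and all 8 means were lower in H, with a median difference of -0.28. AMACR, a racemase that prepares branched-chain acyl-CoA for oxidation, read 7.04, 6.46 and 6.16 in H and 7.84 and 7.57 in L. H minus L was -1.15 (limma, standard error 0.329, adjusted p = 1), with an unadjusted p under 0.05, and the groups did not overlap. Of the 61 genes with a probe set in the 7 pathway lists, 2 had an unadjusted p under 0.05 (AMACR and NCOR1), beside 3.18% of all probe sets. ACOT8, a peroxisomal thioesterase, read 4.86 on all 3 H arrays and 5.08 and 4.87 in L, a difference of -0.11. This probe set hardly varied apart from BC2. BC3, at 4.8651, lay barely above BC5 and BC6, at 4.8643. These 2 of 8 genes had groups without overlap, beside the same 7.7% of varying probe sets, and none of the 8 passed the threshold. The median was -0.01 without BC2, -0.65 without BC3 and -0.13 without BC5. Centred on each gene's mean, the list's median value was 0.15, -0.41 and -0.32 on BC4, BC5 and BC6, against 0.54 and -0.11 on BC2 and BC3. Here too BC4 lay above BC3.

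Carnitine supply was covered by few probe sets. SLC22A5, the carnitine transporter of the plasma membrane, was low, at 4.79, 5.34 and 4.75 in H and 4.96 and 5.02 in L. CRAT, which transfers acetyl groups to carnitine, read 8.84, 9.18 and 8.07 in H and 8.96 and 8.41 in L, and both genes had group means within 0.04 of each other. ALDH9A1, an aldehyde dehydrogenase of carnitine synthesis, read 12.18, 11.66 and 12.04 in H and 12.47 and 12.37 in L, with no overlap and a difference of -0.46 (adjusted p = 1 from limma). It was 1 of 4 genes with a level, beside 7.7% of varying probe sets with H below both L arrays. The 3 probe sets of CPT1C, a brain form of CPT1, did not rise above the floor by more than a trace. No probe set was annotated to SLC22A4, BBOX1, CROT or SLC25A29. Over the 4 genes with a level, 1 mean was higher and 3 were lower in H, with a median difference of -0.15 and no gene past the threshold. That median was -0.04 without BC2, -0.38 without BC3, -0.24 without BC4, -0.23 without BC5 and -0.03 without BC6.

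For the malonyl-CoA and AMPK control of CPT1, neither ACACB, which makes malonyl-CoA near mitochondria, nor MLYCD, which removes it, had an annotated probe set. ACACA, which makes malonyl-CoA for fatty acid synthesis, had 2 probe sets, the brightest at the floor of 2.17 on all 5 arrays. That does not show that its transcript is absent, and none of ACACA, ACACB and MLYCD had a level here. Other enzymes that use malonyl-CoA were not in this list. PRKAG2, a regulatory subunit of AMPK, read 8.80, 9.56 and 8.87 in H and 8.79 and 8.43 in L, so that H was 0.46 above L on average (limma, standard error 0.319, adjusted p = 1). The H and L values of PRKAG2 did not overlap, although BC4 and BC2 were nearly equal. It was 1 of 6 genes with a level, beside 9.04% of varying probe sets with H above both L arrays. The 6 genes with a level, all AMPK subunits or the kinase gene STK11, had 4 means higher and 2 lower in H. Their median difference was 0.03, with none past the threshold. The median was -0.00567 without BC4, -0.0016 without BC5 and 0.22 without BC6, and 0.05 and 0.06 without BC2 and BC3.

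Among PPARA's partners and relatives, PPARG, the adipocyte form of the receptor, read 10.28, 10.50 and 10.79 in H and 10.60 and 10.60 in L. PPARD, the broadly expressed form, read 6.90, 7.62 and 7.50 in H and 7.31 and 6.92 in L. Neither differed between groups by more than its standard error in limma. RXRA, a partner receptor, and PPARGC1A, a coactivator, were at the floor on all 5 arrays, whereas RXRB read 5.86, 6.24 and 5.14 in H and 5.70 and 6.29 in L. NCOR1, a corepressor of nuclear receptors, had 3 probe sets. The brightest read 10.40, 10.38 and 10.30 in H and 10.49 and 10.64 in L, a difference of -0.20 (adjusted p = 1 from limma). Its unadjusted p was under 0.05, as for 2 of 61 genes in the 7 pathway lists and 3.18% of all probe sets. The coactivators NCOA2 and NCOA1, with 3 and 6 probe sets, also had groups that did not overlap on their brightest one, with differences of 0.21 and -0.24. Of the 7 partner genes with a level, 1 thus had H above both L arrays, beside 9.04% of varying probe sets, and 2 had H below both, beside 7.7%. Over 7 genes with a level, 2 means were higher and 5 lower in H, with a median of -0.08 and no gene past the threshold. The median was 0.06 without BC6 and -0.22 without BC4.

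Other known PPAR target genes included some that were bright in backfat. PDK4, a kinase that restrains pyruvate oxidation, read 14.01, 13.44 and 13.79 in H and 13.78 and 13.90 in L. ANGPTL4, an inhibitor of lipoprotein lipase, read 11.74, 11.68 and 11.93 in H and 11.18 and 11.89 in L. These genes also answer to the other PPAR forms. Of 8 targets with a level, 5 means were higher and 3 lower in H, the median difference was 0.07, no gene had groups without overlap and none passed the threshold. The median turned to -0.20 without BC3 and to -0.21 without BC4, and was 0.0034 without BC2 and 0.12 without BC6. Of 6 genes of ketone body metabolism, 2 had a level, BDH2 and OXCT1. OXCT1, which starts the use of ketone bodies, read 9.72, 9.21 and 11.23 in H and 11.30 and 11.08 in L. BC6 lay with the L animals there, and the difference of -1.13 did not pass the test.

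**Figure D3:**
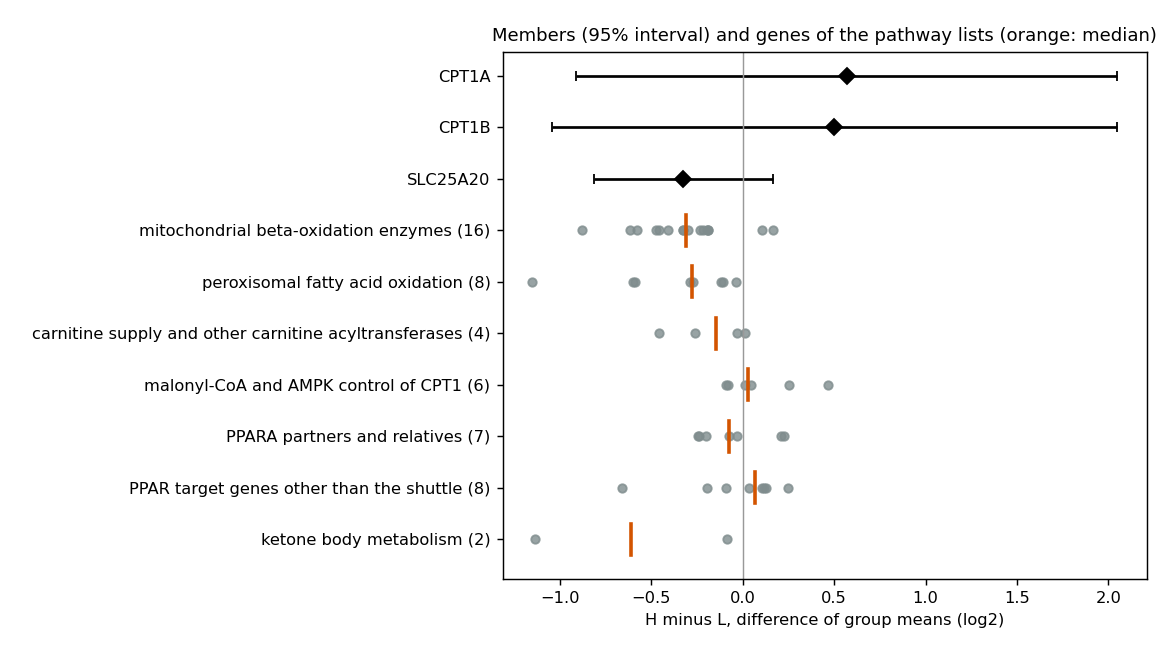
H minus L (log2) for the 3 members with a level, as diamonds with 95% intervals from limma, and below them for each gene with a level in 7 pathway lists, as grey points with an orange line at the list's median (number of genes in brackets). CPT1A and CPT1B lie right of zero at 0.57 and 0.50 and SLC25A20 left of it at -0.32, all with intervals across zero, and the beta-oxidation median lies at -0.31.

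The genes whose pattern over the 5 arrays was most like that of a member were ranked by the root mean square distance of values centred on their own mean, among 7902 probe sets above the floor on all arrays. For CPT1A these were AKAP2, a kinase anchoring protein (distance 0.0586 on the log2 scale), S1PR1, a sphingosine 1-phosphate receptor of endothelium and lymphocytes (0.0911), and DGKE, a diacylglycerol kinase (0.0924). The median distance over all candidates was 0.550. S1PR1 read 10.08, 10.71 and 9.93 in H and 9.28 and 10.21 in L, with BC5 highest and BC2 lowest as for CPT1A. For CPT1B they were PFKP, a phosphofructokinase (0.0654), PDXK, pyridoxal kinase (0.0927), and PDLIM4, a cytoskeletal adaptor (0.115). PFKP read 7.02, 7.78 and 8.16 in H and 6.64 and 7.68 in L. No test is attached to these distances, which rest on 5 arrays and many candidates. The range of SLC25A20 over the arrays was 0.62, under the range of 1 required for this ranking.

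Marker genes of other cell types moved with the members on some arrays. The 4 endothelial markers with a level had a median centred value of 0.01 on BC4, 0.70 on BC5 and -0.30 on BC6, against -0.44 on BC2 and 0.26 on BC3. BC5 and BC3 were highest and BC2 lowest, as for CPT1A, whose centred values were -0.07, 0.81 and -0.05 in H and -0.83 and 0.15 in L. The mean level of these endothelial markers was 10.82 to 11.76 on the H arrays and 10.64 to 11.36 on the L arrays, and KDR was near the floor. In bulk tissue, more cells of a type and more RNA per cell cannot be told apart, and the part of endothelial cells in the CPT1A values was not tested. The signal of the 3′ end over the 5′ end of actin was 4.03 on BC4, 4.80 on BC5 and 3.85 on BC6, against 4.06 on BC2 and 4.77 on BC3 (log2). It was largest on BC5 and BC3 too, and its part in the CPT1A values was not tested.

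For CPT1B, named for muscle, the skeletal muscle markers were set beside its values. Their median centred value was -0.84 on BC4, 2.58 on BC5 and -1.30 on BC6, against -1.22 on BC2 and 0.82 on BC3. The centred values of CPT1B were -0.44, 0.29 and 0.74 on BC4, BC5 and BC6, against -0.72 and 0.12 on BC2 and BC3. BC5, BC3, BC4 and BC2 stood in the same order for both, whereas on BC6 CPT1B was highest and the muscle markers were lowest. The order of BC5, BC3, BC4 and BC2 was also that of CPT1A and of the endothelial markers, so it was not particular to CPT1B and muscle. The 3 macrophage markers with a level (CD163, AIF1 and MRC1) had a median centred value of -0.88 on BC4, -0.84 on BC5 and 1.38 on BC6, against -0.25 on BC2 and 0.66 on BC3, and were thus highest on BC6 like CPT1B. Their mean level was 6.65 to 8.85 on the H arrays and 7.28 to 7.96 on the L arrays. CD68 and CSF1R had no annotated probe set. The part of muscle or macrophages in the CPT1B values was not tested. MYH2, a myosin of fast muscle fibres, read 2.71, 7.84 and 2.17 in H and 2.17 and 4.75 in L, and CKM, the muscle creatine kinase, read 3.28, 6.95 and 2.43 in H and 2.91 and 5.04 in L.

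**Figure D4:**
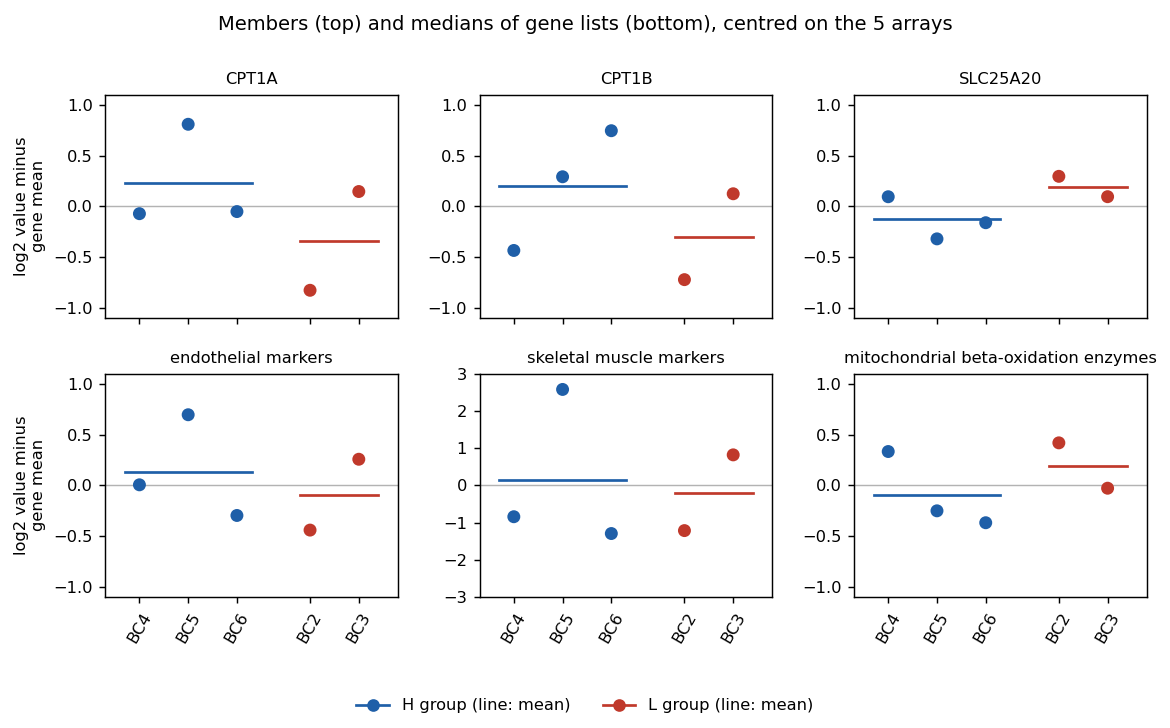
Log2 values centred on their mean over the 5 arrays, for CPT1A, CPT1B and SLC25A20 (top) and as medians over endothelial markers, skeletal muscle markers and beta-oxidation enzymes (bottom), H in blue and L in red with lines at group means, and a wider vertical scale for the muscle markers. CPT1A and the endothelial markers are both highest on BC5 and lowest on BC2. The order BC5, BC3, BC4, BC2 is shared by CPT1A, CPT1B, the endothelial markers and the muscle markers. CPT1B and the muscle markers differ on BC6, where CPT1B is highest and the muscle markers are lowest.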

How the data were processed

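Backfat RNA of 3 H and 2 L pigs was measured with 1 array per animal. The authors deposited log2 values per probe set, read out with the GCOS software, adjusted for background and normalized between arrays. Per the methods this used GCRMA, whereas the submitters' processing notes name RMA. The labels give animal codes, and their groups come from the paper's legends. An extraction note naming liver conflicts with the tissue label, and the tissue was taken as backfat.

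From 24123 probe sets, 124 controls were left out. H minus L was fitted on all 23999 with limma 3.58.1 in R 4.3.3, with no covariate, adjusted p by Benjamini-Hochberg, and the thresholds the study gave for RNA-Seq, as none were given for arrays. The spread is that between animals, and 5 arrays limit the precision. Lists used the brightest probe set of a gene, and a gene had a level if it exceeded 3 on some array and was not constant. Besides the members, genes named were those of each list without overlap (up to 3 by size), direct regulators of the shuttle, and the 3 nearest profiles. ACADM and PPARG belong to 2 lists each. Other list genes and markers were named as examples after their values were seen. The exact permutation test used scipy 1.17.1. The members, lists and rules were chosen with earlier results of these data known. The fit was tested on simulated data. Alternatives were other scalings, filters, variance models, array weights and leaving out animals. The gene next to CPT1B was looked up in the RefSeq gene table of Sscrofa11.1. Coordinates and sequences are not given here.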

Additional observations from a re-analysis of the deposited data

How the results depend on the processing

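No member passed the threshold under any alternative. With all 5 arrays, H minus L was 0.44 to 0.58 for CPT1A, 0.34 to 0.50 for CPT1B and -0.34 to -0.25 for SLC25A20. Leaving out 1 animal gave 0.08 to 1.06 for CPT1A, 0.08 to 0.92 for CPT1B and -0.44 to -0.22 for SLC25A20. Without BC3 and BC5, which leaves 1 L array, the differences were 0.77 for CPT1A, 0.88 for CPT1B and -0.33 for SLC25A20. CPT1A minus CPT1B was 0.11 with quantile normalization and -0.18 to 0.48 without 1 animal, negative without H replicate 4 (-0.10) and H replicate 5 (-0.18), and -0.11 without BC3 and BC5, an alternative chosen after seeing the data. Each CPT1 gene had 1 probe set, so other pairs could not be run. Probe sets past the threshold were 0 in all settings with 5 arrays, 0 to 286 without 1 animal (160 without L replicate 2, 286 without L replicate 3), 305 without BC3 and BC5, and 762 at an unadjusted p under 0.05. Where 1 L array was left, it is assumed to vary like the H arrays. Of the pathway lists, ETFA alone passed, without BC3 and BC5 (1 gene). Median centring moved the median of all probe sets by -0.02.

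Without 1 animal, list medians were -0.56 to -0.08 for mitochondrial beta-oxidation, -0.65 to -0.0145 for peroxisomal oxidation, -0.38 to -0.0260 for carnitine supply (-0.42 without BC3 and BC5), -0.00567 to 0.22 for malonyl-CoA and AMPK control, -0.22 to 0.0564 for PPARA partners (-0.13 with array weights, -0.11 without BC3 and BC5), -0.21 to 0.12 for PPAR targets, -0.21 to 0.0617 for adipocyte markers (0.0273 with array weights) and -0.36 to 0.48 for hepatocyte markers. The cause of these shifts was not tested. No paired analysis was possible because H and L hold different animals with different codes. CPT2 and PPARA, whose values hardly varied, stayed without a direction.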
